A study of Rattus norvegicus with 6 samples.

Results

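The miR-23/27/24 clusters are a pair of microRNA (miRNA) gene groups, miR-23a/27a/24-2 (the a cluster) and miR-23b/27b/24-1 (the b cluster), each of which gives 3 short hairpins with a 5p and a 3p arm. Every probe whose name starts with rno-miR-23a-, rno-miR-23b-, rno-miR-27a-, rno-miR-27b- or rno-miR-24- was taken, by its name alone. The clusters themselves were chosen with earlier results of these data known. The rule by name gave 11 of the 761 rat miRNA probes on the array. These are 5 probes for 3p arms and 6 for 5p arms. All 11 were among the 695 miRNAs tested.

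The series measured miRNAs in rat oligodendrocyte precursors in culture, which mature into the myelin-forming oligodendrocytes of the brain and spinal cord. DIV3 (3 arrays) are precursors that were allowed to differentiate in Raff medium by the usual change of growth factors, labelled as the differentiated condition. DIV0 (3 arrays) are precursors grown in Raff medium, labelled as the normal condition. DIV commonly stands for days in vitro. The sources used here give neither the rat strain nor the age of the animals, nor say whether the replicates were separate cultures, so the p-values rest on a spread between samples that may be technical. Each RNA sample was labelled with Cy5 and hybridised to its own array.

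In most animals a miRNA pairs with messenger RNAs mainly through its seed, bases 2 to 8, and lowers their stability or translation. A hairpin is cut into a duplex, of which 1 strand, the guide, is usually kept, while the other, the passenger, is mostly discarded. In the miR-23, miR-27 and miR-24 hairpins the 3p arm is the usual guide. In mouse, miR-23a is known to repress lamin B1, a nuclear envelope protein, and to promote oligodendrocyte differentiation and myelin formation. miR-27 is known for repressing adipocyte differentiation, and miR-24 for repressing cell cycle genes.

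The sequences below show how far a probe for the a cluster and its counterpart in the b cluster have to tell near-identical molecules apart. They come from RefSeq on rat build GRCr8, which matched 10 of the 11 members, and the capitals mark the seed.
rno-miR-23a-3p: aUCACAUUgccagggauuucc
rno-miR-23b-3p: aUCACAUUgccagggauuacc
rno-miR-27a-3p: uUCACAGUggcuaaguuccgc
rno-miR-27b-3p: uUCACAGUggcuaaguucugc
rno-miR-24-3p: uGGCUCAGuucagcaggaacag
rno-miR-24-2-5p: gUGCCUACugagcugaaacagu
rno-miR-24-1-5p: gUGCCUACugagcugauaucag
Counted from 1 at the 5′ end of the a-cluster molecule, miR-23a-3p and miR-23b-3p differ only by U19A and miR-27a-3p and miR-27b-3p only by C19U, which leaves 95.2% of the 21 bases identical in each pair. Both pairs thus share their seed, UCACAUU for miR-23 and UCACAGU for miR-27, and no other of the 693 rat mature miRNAs in the table has either of them. The seeds of miR-23 and miR-27 have the run UCACA of 5 bases in common. miR-24-2-5p and miR-24-1-5p share the seed UGCCUAC and differ by A17U, C19U, A20C, G21A and U22G, with 77.3% of 22 bases identical. How far each probe also binds the close copy was not tested, so the values of such a pair are uncertain as separate levels.

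On build GRCr8 the a cluster lies on the minus strand of chromosome 19, at chr19:40859455-40859843, where its 3 hairpins span 389 bases and no annotated gene spans them. The b cluster lies on the minus strand of chromosome 17, at chr17:1818669-1819482, where its hairpins span 814 bases inside the protein-coding gene Aopep, which encodes an aminopeptidase. The mature miR-24-3p is encoded in both clusters, at chr19:40859481-40859502 and at chr17:1818672-1818693, with the same letters, so its single probe adds up the output of both. The sources used here do not name the build behind the array design, and no coordinate enters a measurement.

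The arrays detected 605 to 725 of the 761 miRNAs, and the median miRNA spot stood 5.87 to 44.7 intensity units above the blank spots. The lowest of these medians belongs to DIV0 replicate 3, a dim array whose spike-in spots averaged 6832 units, where the brightest array had 36833. Spots with no probe passed the same detection limit in 32.6% to 45.4% of cases, so detection alone says little for dim spots. All DIV3 arrays lay at the second position of their slide and all DIV0 arrays at the first, so an effect of position cannot be told apart from one of condition. miR-338-3p and miR-219a-2-3p, whose families are known for oligodendrocyte maturation, were higher at DIV3 by 2.22 ± 0.23 and 1.64 ± 0.20 on the normalized log2 scale (± SE, limma, adjusted p = 0.0176 and 0.0230). Both come from a list of 12 miRNAs drawn up with earlier results of these data known. They are thus no independent check of the labels. On that list 8 miRNAs were above 0 and 4 below. In such samples fewer cells of a type and less RNA per cell cannot be told apart.

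No difference in the clusters passed the main test, and 2 passed with the replicate number as a block. In the limma fit 14 of 695 miRNAs (2.01%) passed an adjusted p of 0.05 in either direction and 6 (0.863%) passed as lower at DIV3, and none of the 11 members passed. At an unadjusted p under 0.05 there were 2 members, miR-23a-3p and miR-27a-3p, beside 102 of all 695 miRNAs. With the replicate number as a block, 14 of 695 miRNAs (2.01%) passed as lower at DIV3, and miR-23a-3p and miR-24-3p were among them. The median log2 fold change was -0.34 over the 5 3p arms and -0.07 over the 6 5p arms, beside -0.01 over all tested miRNAs. Of the 3p arms 4 of 5 were below 0, and all 5 were above 0 under median scaling. The a cluster had 4 of its own 5 probes below 0 and the b cluster 3 of its 5, leaving out the shared miR-24-3p. Of all 695 tested miRNAs 370 were below 0, so such small counts say little. On the normalized scale the DIV3 values lay wholly beyond the DIV0 values, in either direction, for 131 of 695 miRNAs (18.8%) and wholly below them for 61 (8.78%). Among the members they lay wholly below for 3 (miR-23a-3p, miR-27a-3p and miR-27a-5p) and wholly above for 1 (miR-23a-5p). For miR-27a-5p the gap was narrow, with a highest DIV3 level of 5.988 and a lowest DIV0 level of 5.998. The deposited values of miR-27a-3p and miR-27a-5p overlap.

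**Figure D1:**
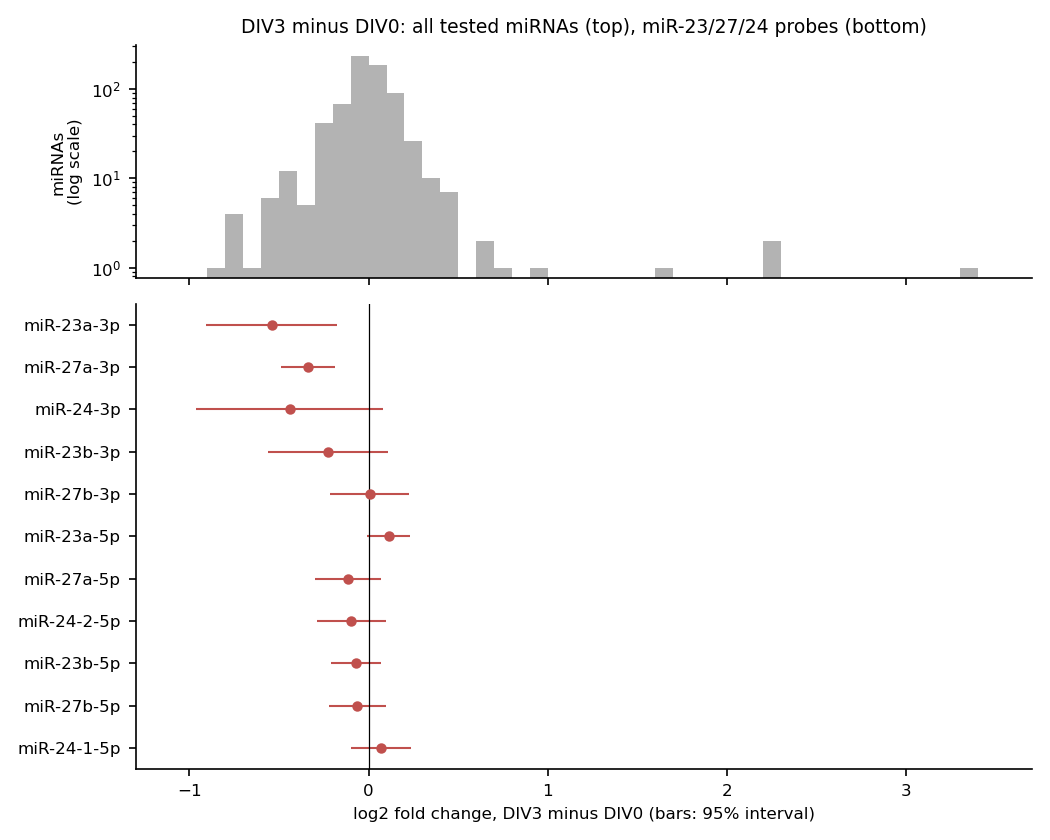
The upper panel counts the 695 tested miRNAs by log2 fold change, DIV3 minus DIV0, on a log count axis, and the lower panel gives the 11 members with 95% intervals. The members lie between -0.54 and 0.11. miR-23a-3p is near the lower end of the histogram, with 9 of the 695 miRNAs below it, and the intervals of miR-23a-3p and miR-27a-3p stay below 0.

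Among the 3p arms of the a cluster, miR-23a-3p had the largest difference. Its deposited values, from a table whose median is 25 on each array, were 923, 989 and 806 units at DIV3, against 1218, 1298 and 1021 units at DIV0 (replicates 1, 2 and 3). Every DIV3 value lies below every DIV0 value, and the same holds for the normalized log2 levels of 9.87, 10.42 and 10.00 at DIV3, against 10.56, 10.79 and 10.56 at DIV0. The normalized level averaged 10.10 ± 0.29 at DIV3 and 10.64 ± 0.13 at DIV0 (SD, n = 3 each), a log2 fold change of -0.54 ± 0.15 (SE, limma, adjusted p = 0.176). Pairs of equal replicate number differed by -0.69, -0.36 and -0.57, and with the number as a block miR-23a-3p fell at DIV3 (limma, adjusted p = 0.0256). Without the arrays of number 1, 2 or 3 the blocked log2 fold change was -0.48, -0.58 or -0.54 (limma, adjusted p = 0.205, 0.00184 and 0.132), so the call was lost without number 1 or 3, at a difference of similar size. On the deposited values with the block the log2 fold change was -0.38 (adjusted p = 0.237). Without the dim DIV0 array the log2 fold change was -0.57 with no block. With all arrays it was -0.86 with the local background, the area around each spot in place of the blank spots, and 0.20 under median scaling.

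miR-27a-3p, which lies between miR-23a and miR-24-2 on the same strand, had the smallest standard error of the 3p arms. Its deposited values were 560, 505 and 499 units at DIV3, against 692, 555 and 535 units at DIV0. The deposited values overlap, because the DIV3 array of replicate 1 is above both lower DIV0 arrays. The normalized log2 levels of 9.33, 9.48 and 9.41 at DIV3, against 9.80, 9.73 and 9.69 at DIV0, do not overlap. They averaged 9.41 ± 0.07 at DIV3 and 9.74 ± 0.06 at DIV0 (SD, n = 3 each), and the log2 fold change was -0.34 ± 0.06 (SE, limma, adjusted p = 0.0608). The adjusted p was 0.0686 with the replicate block, 0.0326 with that block and without the arrays of number 2 (log2 fold change -0.37), and 0.0302 with the slide as a random block. The log2 fold change was -0.39 without the dim DIV0 array, -0.18 on the deposited values, -0.13 with the local background and 0.35 under median scaling.

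miR-24-3p, the product of both clusters, had normalized levels that spread more over the replicates of a condition than their means differed between conditions. Its deposited values were 839, 947 and 814 units at DIV3, against 1014, 1319 and 908 units at DIV0, so the groups overlap. Replicate 2 is the highest in both conditions, as it also is in the deposited values of miR-23a-3p and miR-23b-3p. The normalized levels averaged 10.04 ± 0.29 at DIV3 and 10.48 ± 0.36 at DIV0 (SD, n = 3 each), with a log2 fold change of -0.44 ± 0.22 (SE, limma, adjusted p = 0.440). The pairs of equal number differed by -0.46, -0.56 and -0.31, and with the block miR-24-3p fell at DIV3 (limma, adjusted p = 0.0323). Without the arrays of number 1, 2 or 3 the blocked log2 fold change was -0.44, -0.39 or -0.50 (adjusted p = 0.234, 0.0236 and 0.0915), again with the call lost without number 1 or 3. On the deposited values with the block it was -0.30 (adjusted p = 0.330). The log2 fold change was -0.51 without the dim DIV0 array, -0.24 without the DIV0 array of replicate 2, -1.17 with the local background and 0.26 under median scaling.

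Of the 5 tested miRNAs that mark microglia and blood cells, 3 were also highest on replicate 2 in both conditions (miR-223-3p, miR-142-5p and miR-142-3p), and miR-150-5p and miR-451-5p were not. miR-223-3p, a myeloid miRNA, had deposited values of 81, 190 and 76 units at DIV3, against 130, 266 and 84 units at DIV0. Over the microglia and blood list 5 of 6 miRNAs were tested, miR-144-3p being undetected on every array, and the summed deposited values were 176 to 339 units at DIV3 and 161 to 453 units at DIV0. None of the 5 passed the limma test, and with the block miR-223-3p fell (adjusted p = 0.0381). The 5 endothelial and mural markers summed to 52 to 81 units at DIV3 and 33 to 85 units at DIV0, and the 4 neuron markers to 727 to 1008 units at DIV3 and 777 to 1027 units at DIV0, with none past the test in either fit. The part of these cells in the results for miR-24-3p, miR-23a-3p and miR-23b-3p was not tested.

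In the b cluster, miR-23b-3p, which differs from miR-23a-3p by a single base, had deposited values of 985, 1062 and 996 units at DIV3, against 1149, 1244 and 1045 units at DIV0. The highest DIV3 value is above the lowest DIV0 value. The normalized levels were 10.33 ± 0.22 at DIV3 and 10.56 ± 0.18 at DIV0 (SD, n = 3 each), with a log2 fold change of -0.23 ± 0.14 (SE, limma, adjusted p = 0.578). The 3 pairs differed by -0.28, -0.25 and -0.15, and the adjusted p with the block was 0.137. The log2 fold change was -0.20 without the dim DIV0 array, between -0.35 and -0.09 over the single arrays left out, -0.74 with the local background and 0.40 under median scaling.

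miR-27b-3p had nearly the same mean in both conditions. Its deposited values were 501, 445 and 487 units at DIV3, against 464, 417 and 448 units at DIV0, and these overlap. Normalized levels were 9.32 ± 0.05 at DIV3 and 9.31 ± 0.17 at DIV0 (SD, n = 3 each). The log2 fold change of 0.01 ± 0.09 (SE, limma, adjusted p = 0.991) has a 95% interval of -0.21 to 0.23. It was 0.07 without the dim DIV0 array, -0.02 with the local background and 0.61 under median scaling.

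**Figure D2:**
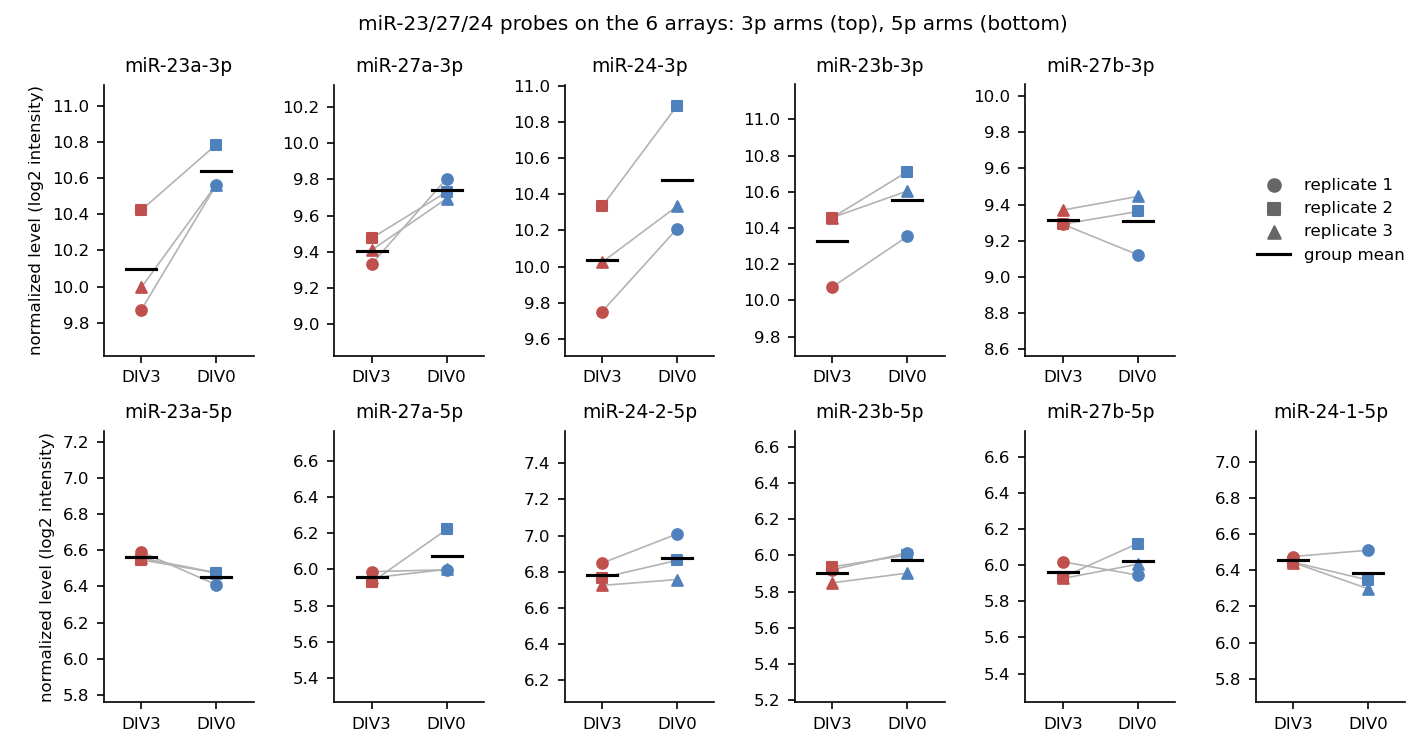
Normalized log2 intensity of each member on the 3 DIV3 arrays (left) and the 3 DIV0 arrays (right), with the 3p arms above and the 5p arms below, lines joining equal replicate numbers and black bars for the means. Each panel spans the same range around its own centre. The 3p arms miR-23a, miR-27a, miR-24 and miR-23b slope the same way in all 3 pairs, and the lines of miR-27b-3p slope both ways.

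The 6 passenger arms were dim, which limits what their values can show. Their spots stood 1.79 to 97.0 units above the blanks, or 0.675 to 14.6 times the detection limit of their array, while the spots of the 3p arms stood 154 to 2519 units above the blanks, or 68.3 to 287 times the limit. All 5 3p arms exceeded the 95th percentile of the spots with no probe on all 6 arrays. Among the 5p arms, miR-24-2-5p did so on 5 arrays, miR-23a-5p and miR-24-1-5p on 4, miR-27a-5p and miR-27b-5p on 2 and miR-23b-5p on 0. miR-23b-5p was also the only member not detected on all arrays. It was below the limit on both arrays of replicate 3. Its spot adjoins that of miR-138-5p and the spot of miR-27a-5p that of miR-338-5p, both of which rose, while those of miR-24-3p and miR-23b-3p adjoin each other. The part of such neighbours in the values was not tested.

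None of the 5p arms passed the test, with adjusted p from 0.413 to 0.752 in limma and from 0.441 to 0.709 with the replicate block. miR-23a-5p had deposited values of 40, 32 and 29 units at DIV3, against 27, 26 and 24 units at DIV0. All its DIV3 values are above all its DIV0 values, with a log2 fold change of 0.11 ± 0.05 (SE, limma, adjusted p = 0.413). Its guide arm differed in the opposite direction. miR-27a-5p had 11, 8 and 7 units at DIV3, against 10, 17 and 9 units at DIV0, where the value of 17 on replicate 2 stands apart. These deposited values overlap, and the log2 fold change of miR-27a-5p was -0.12 ± 0.08 (limma, adjusted p = 0.607).

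miR-24-2-5p, which comes from the a cluster only, had deposited values of 56, 43 and 37 units at DIV3, against 62, 47 and 35 units at DIV0. miR-24-1-5p, from the b cluster only, had 34, 26 and 25 units at DIV3, against 33, 22 and 18 units at DIV0. The groups overlap for both, and the log2 fold changes were -0.10 ± 0.08 and 0.07 ± 0.07 (SE, limma, adjusted p = 0.691 and 0.749). Each of these 5p arms comes from a different precursor of the common miR-24-3p. How far their probes tell them apart was not tested. miR-27b-5p had 13, 8 and 6 units at DIV3, against 9, 14 and 9 units at DIV0, and miR-23b-5p had 9 and 8 units on the DIV3 arrays and 11 and 10 units on the DIV0 arrays of replicates 1 and 2. Their log2 fold changes of -0.06 ± 0.07 and -0.07 ± 0.06 came with overlapping groups.

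The a cluster was set against the b cluster by the log2 ratio of matching arms within each array. Such a ratio has no absolute meaning, since the probes differ in how they bind, so only its difference between conditions was read. In all, 11 ratios were compared by exact two-sided permutation over the 3 DIV3 and 3 DIV0 arrays, which cannot give a p below 0.1, or below 0.25 by sign flips within pairs. After Benjamini-Hochberg adjustment over the 11 ratios the lowest p was 0.275, so none passed.

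Of the 5 ratios of an a-cluster arm over its b-cluster counterpart, 4 were lower at DIV3. The miR-27a-3p over miR-27b-3p ratio of the deposited values was 1.12, 1.13 and 1.02 at DIV3, against 1.49, 1.33 and 1.19 at DIV0. No DIV3 ratio reaches a DIV0 ratio. On the normalized log2 scale it averaged 0.09 ± 0.08 at DIV3 and 0.43 ± 0.22 at DIV0 (SD, n = 3 each), a difference of -0.34 (exact permutation p = 0.1, adjusted p = 0.275). The miR-23a-3p over miR-23b-3p ratio of the deposited values was 0.937, 0.931 and 0.809 at DIV3, against 1.06, 1.04 and 0.977 at DIV0, again with no overlap. On the normalized scale the groups overlapped by 1 array, with averages of -0.23 ± 0.22 at DIV3 and 0.08 ± 0.12 at DIV0 (SD, n = 3 each) and a difference of -0.31 (exact permutation p = 0.2, adjusted p = 0.314).

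The miR-24-2-5p over miR-24-1-5p ratio of the deposited values was 1.65, 1.65 and 1.48 at DIV3, against 1.88, 2.14 and 1.94 at DIV0. These do not overlap either. The normalized log2 ratio averaged 0.33 ± 0.04 at DIV3 and 0.49 ± 0.03 at DIV0 (SD, n = 3 each), a difference of -0.17 (exact permutation p = 0.1, adjusted p = 0.275). All 3 pairs of equal number had the same sign in each of these 3 ratios. Each kept its direction in all 18 alternatives computed, which are not all separate checks. The replicate block repeats the difference found without it, on the deposited values too. The constant that median scaling takes from each array cancels in a ratio. Over the alternatives the miR-27a-3p over miR-27b-3p difference ranged from -0.46 to -0.11. That of miR-23a-3p over miR-23b-3p ranged from -0.42 to -0.12 and that of miR-24-2-5p over miR-24-1-5p from -0.31 to -0.01. The value nearest 0 came from the local background in each of them.

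The remaining passenger arms did not share that direction. The miR-23a-5p over miR-23b-5p ratio was higher at DIV3 by 0.18 on the log2 scale (exact permutation p = 0.1, adjusted p = 0.275), with miR-23b-5p undetected on both arrays of replicate 3. This ratio also had the same sign in all 3 pairs. It kept its direction in all 18 alternatives, not all of them separate checks, with differences from 0.08 to 0.70. The largest came from the deposited values, where miR-23b-5p is missing on both arrays of replicate 3. miR-23b-5p exceeded the 95th percentile of the spots with no probe on 0 arrays, so this ratio says little about the clusters. The miR-27a-5p over miR-27b-5p ratio differed by -0.05 (exact permutation p = 0.3, adjusted p = 0.413), and its groups overlap.

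**Figure D3:**
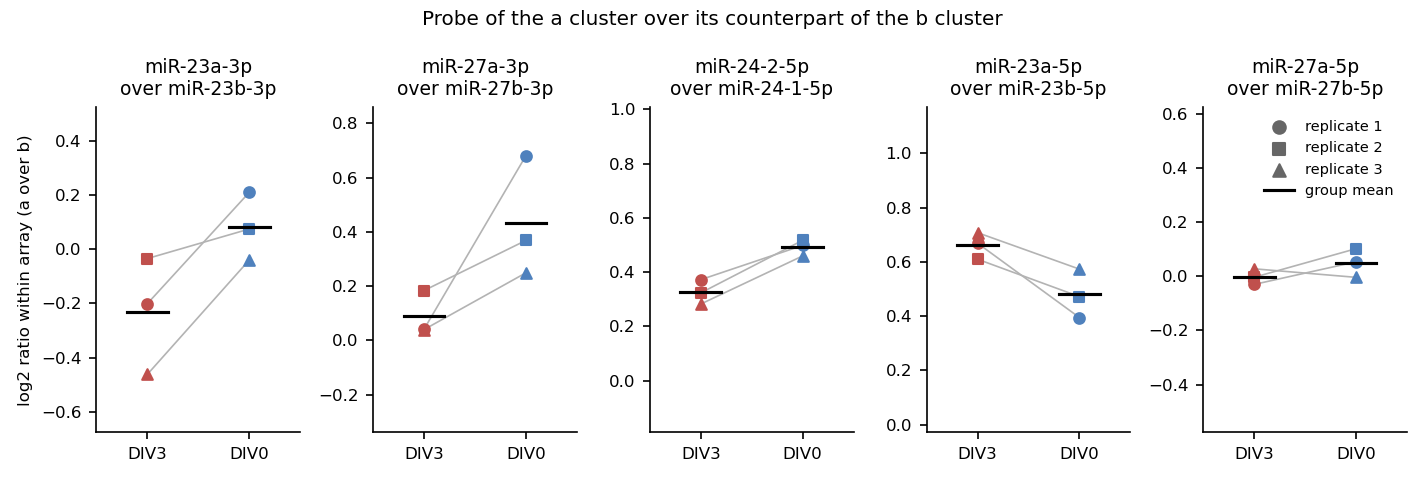
Log2 ratio of each a-cluster probe over its b-cluster counterpart within each array, with the 3 DIV3 arrays left, the 3 DIV0 arrays right and lines joining equal replicate numbers. Each panel spans the same range. The 3 left panels lie lower at DIV3 in every pair, the miR-23a-5p over miR-23b-5p panel lies higher, and the miR-27a-5p over miR-27b-5p panel is nearly level.

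Guide arms were then set against passenger arms of the same hairpin. The miR-23a-3p over miR-23a-5p ratio of the deposited values was 23.1, 30.9 and 27.8 at DIV3, against 45.1, 49.9 and 42.5 at DIV0. The groups do not overlap, and the normalized log2 ratio averaged 3.53 ± 0.31 at DIV3 and 4.18 ± 0.11 at DIV0 (SD, n = 3 each), a difference of -0.65 (exact permutation p = 0.1, adjusted p = 0.275). It was -0.71 without the dim DIV0 array and 0.01 under median scaling. The other 5 guide over passenger ratios had overlapping groups. Their differences on the log2 scale were -0.51 for miR-24-3p over miR-24-1-5p, -0.34 for miR-24-3p over miR-24-2-5p, -0.22 for miR-27a, -0.16 for miR-23b and 0.07 for miR-27b (exact permutation p from 0.2 to 0.5). The 4 that were below 0 turned above 0 under median scaling. On the deposited values the miR-27a and miR-23b differences turned above 0 (0.22 and 0.051), and the rest kept their direction. The offset shrinks the fold changes of the dim passenger arms, which limits these ratios as a comparison of arms.

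**Figure D4:**
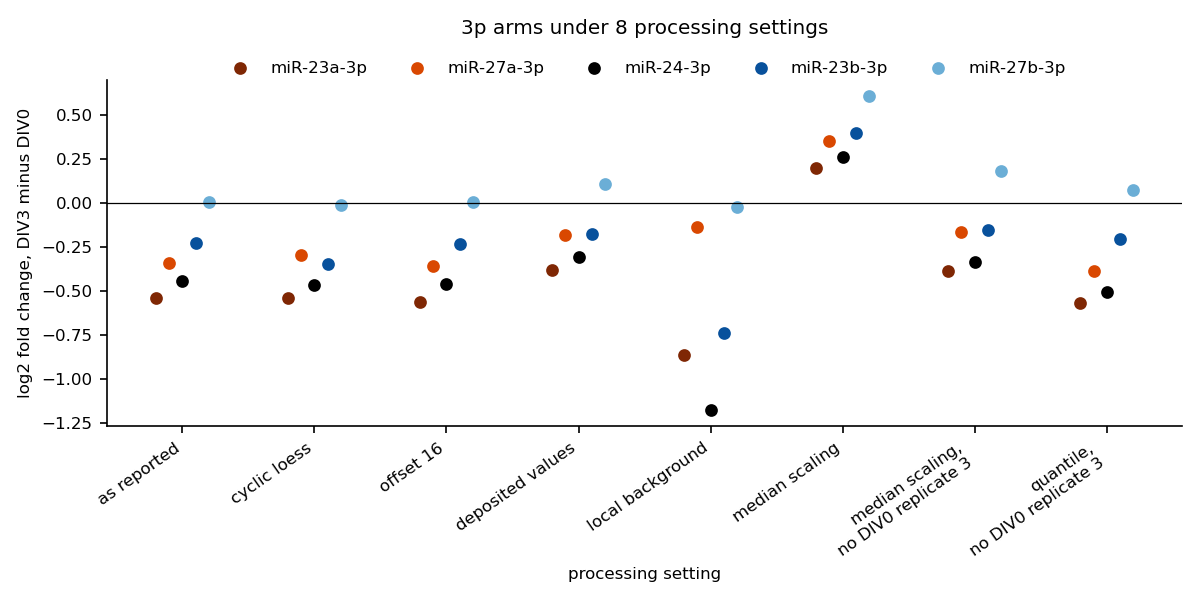
Log2 fold change, DIV3 minus DIV0, of the 5 3p arms (1 colour each) under 8 processing settings. miR-27b-3p is above the other 4 at every setting, and all 5 are above 0 under median scaling with every array and 4 of 5 below 0 once the dim DIV0 array is left out there.

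Under median scaling the direction of 4 of the 3p arms changed when 1 array was left out, as the settings plot shows. With all arrays their log2 fold changes were 0.20 for miR-23a-3p, 0.35 for miR-27a-3p, 0.26 for miR-24-3p and 0.40 for miR-23b-3p. With the dim DIV0 array of replicate 3 left out, the same scaling gave -0.39, -0.16, -0.33 and -0.15 in that order. Under quantile normalization, leaving out that array turned none of the 5 arms. The order between clusters was steadier, since miR-27b-3p stayed above miR-27a-3p and miR-23b-3p above miR-23a-3p in every setting drawn. The constant that median scaling takes from each array cannot alter that order.

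The relatives of the clusters on the array are miR-128-3p and miR-3074. miR-128-3p, a miRNA enriched in neurons, is shown because its seed overlaps that of miR-27 by the 6 bases CACAGU, shifted by a base.
rno-miR-128-3p: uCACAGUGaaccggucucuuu
rno-miR-3074: gAUAUCAGcucaguaggcaccg
miR-128-3p had deposited values of 115, 89 and 88 units at DIV3, against 107, 158 and 107 units at DIV0, with a normalized log2 fold change of -0.41 ± 0.16 (SE, limma, adjusted p = 0.302). miR-3074 is read from the plus strand, opposite miR-24-1-5p, with which it overlaps by 20 bases. It had 20, 26 and 24 units at DIV3, against 19, 27 and 22 units at DIV0. Its log2 fold change was -0.005 ± 0.10 (limma, adjusted p = 0.991), and like its neighbour miR-24-1-5p it did not pass.

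Among miRNAs with known roles in the lineage, 5 of 12 on the differentiation list rose and 1 fell, and 0 of 10 on the precursor and brake list did either. Of all 695 tested miRNAs 8 (1.15%) rose and 6 fell, so a count of 0 among 10 is near the background. Those that rose were miR-338-5p, miR-338-3p, miR-138-5p, miR-219a-2-3p and miR-219a-5p, the last of them outside the naming rule and named after its value was seen, and miR-335 fell by 0.52 on the log2 scale (limma, adjusted p = 0.0316). With the replicate block 2 of the differentiation list fell, miR-204-5p being the other, and on the brake list miR-222-3p fell (limma, adjusted p = 0.0350). At an unadjusted p under 0.05 the brake list held 1 miRNA. On the brake list miR-9a-5p and miR-9a-3p, named outside the rule, could hardly pass, since quantile normalization left their levels nearly equal on all arrays. Deposited values of miR-9a-5p were 14927, 13186 and 13806 units at DIV3, against 12823, 8073 and 9786 units at DIV0. The lists were drawn up with earlier results of these data known and are no independent evidence of direction.

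The miRNAs whose normalized levels were most like a guide arm over the 6 arrays were found by Pearson correlation, which here contains the difference between conditions and any noise shared by an array. For miR-23a-3p they were miR-221-3p (r = 0.940), miR-3541 (r = 0.927) and miR-335 (r = 0.920). For miR-27a-3p they were miR-21-5p (r = 0.977), miR-335 (r = 0.976) and miR-3541 (r = 0.931). For miR-24-3p they were miR-3473 (r = 0.943), miR-155-5p (r = 0.927) and miR-466c-5p (r = 0.919), all 3 of which were highest on the DIV0 array of replicate 2 in the deposited values. For miR-23b-3p they were miR-204-5p (r = 0.985), miR-344a-5p (r = 0.971) and miR-3072 (r = 0.940). For miR-27b-3p they were miR-3570 (r = 0.965), miR-505-5p (r = 0.962) and miR-152-5p (r = 0.953).

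No named miRNA is common to the lists of an a-cluster guide arm and its b-cluster counterpart. Members, and miRNAs not detected on every array, were left out of these lists. Between the counterparts themselves r was 0.774 for miR-23a-3p and miR-23b-3p, and -0.210 for miR-27a-3p and miR-27b-3p. The a-cluster arms miR-23a-3p and miR-27a-3p share miR-335 and miR-3541. miR-21-5p, a widely expressed miRNA, was the nearest to miR-27a-3p and had deposited values of 1653, 1738 and 1777 units at DIV3, against 3429, 2688 and 2387 units at DIV0. It fell by 0.78 on the log2 scale (limma, adjusted p = 0.0365), so it passed where miR-27a-3p, with a smaller difference, did not.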

How the data were processed

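Levels of miRNAs were measured on 6 single-colour arrays, 3 DIV3 and 3 DIV0, grouped by their titles. Per the file headers, the deposited scanner files hold the median intensity of 3200 spots, scanned at 3 gains and neither background-corrected nor normalized. A deposited table holds scaled intensity values with a median of 25 per array and missing values for undetected spots. The sources used here do not say how it was made. Its scale is linear, and no centring was found. Of the spots 761 are rat miRNA probes, 1664 BLANK and 513 No Probe. Columns of other series numbered 0.

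The BLANK spots served to fit normexp (limma 3.58.1 in R 4.3.3, offset 50), after which log2 values of the miRNA probes were quantile-normalized. The local background followed the spots (correlations of log values from 0.939 to 0.982) and served only as an alternative. A miRNA was detected where it exceeded the blank mean by 2 SD, 5% of blanks being trimmed at each end, and the 695 detected on at least 3 arrays were tested by lmFit and eBayes, two-sided, with Benjamini-Hochberg adjustment at 0.05. The 1 miRNA spot with a scanner flag was left out. Steps were tested on simulated data. The number of arrays limits the precision.

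Replicate numbers were taken to pair the arrays, since same-numbered arrays deviated jointly from the means of their groups (correlations of 0.369, 0.536 and 0.467, against at most -0.018 otherwise, a contrast that is partly arithmetic). The fit without the block is the main one. Replicates 1 and 2 each had a slide to themselves, and replicate 3 was split over a pair of slides. The members and lists were chosen with earlier results of these data known. Named miRNAs are all members, at most 5 of each list, those with the smallest p (all relatives), and the 3 miRNAs most correlated with each 3p arm. Alternatives were the background, the deposited values, the scaling, the offset, the filter, the replicate and slide blocks, the eBayes trend and leaving out arrays. Alternatives with a block and arrays left out, with deposited values and a block, and median scaling without the dim array were chosen after seeing the data.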

Additional observations from a re-analysis of the deposited data

How the results depend on the processing

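The count of all miRNAs past the threshold, 14 in the fit given, was 26 with the replicate block, 29 with the slide as a random block, 9 under median scaling without the dim DIV0 array, 8 on the deposited values with the block, 6 with an offset of 16, 4 under median scaling, 1 with the local background, and 0 on the deposited values and with a fixed slide block (57 and 87 at an unadjusted limma p under 0.05). Leaving out 1 array gave 0 to 13, and the block without the arrays of number 1 or 2 gave 1 or 32. The count of members, 0 in the fit given, was 2 with the replicate block, 3 with the block and without the arrays of number 2, 1 (miR-27a-3p) with the slide as a random block, and 0 in the other alternatives.

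Members' log2 fold changes kept their direction in 230 of 241 alternative values and ratio differences in 186 of 198. Part of these values could not turn, so the counts overstate the number of separate checks. The replicate block, the filters and the eBayes trend leave the members' log2 fold changes of the main fit unchanged. The block also leaves the ratio differences unchanged, and the same holds for the block on the deposited values. Median scaling turned miR-23a-3p (0.20), miR-27a-3p (0.35), miR-24-3p (0.26), miR-23b-3p (0.40) and miR-24-2-5p (0.051), and the 3p over 5p differences of miR-23a (0.0098), miR-27a (0.60), miR-23b (0.61), miR-24-3p over miR-24-2-5p (0.21) and miR-24-3p over miR-24-1-5p (0.18). Without the dim DIV0 array only the miR-27a difference (0.053) stayed turned. The local background turned miR-27b-3p (-0.023), miR-24-2-5p (0.019), and the miR-27a-5p over miR-27b-5p (0.0089) and miR-27b 3p over 5p (-0.010) differences. The deposited values, with and without the replicate block, turned the miR-27a (0.22) and miR-23b (0.051) 3p over 5p differences. miR-27b-3p was also turned by cyclic loess (-0.011), by the block without the arrays of number 1 (-0.064) and by leaving out single arrays (-0.088 to 0.073). Under median scaling, 4 guide arms were below 0 again with the DIV0 array of replicate 3 left out. No other array was left out under that scaling. The cause of these changes was not tested.

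Fits on the deposited values leave out missing spots, so miR-23b-5p rests there on 2 arrays a group. Passenger arms lay near the background, and the offset shrinks their fold changes.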
